A study of Mus musculus with 24 samples.

Results

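Late germinal center (GC) B cells were compared with early GC B cells by RNA sequencing, 3 libraries against 3. These are 6 of the 24 libraries of the series, chosen by their titles. All libraries came from the spleen of BALB/c mice, and the GC groups carry the names Early_GC, Peak_GC and Late_GC. The labels give no genotype, immunogen, day, age or animal for any group. Cells were bead purified, stained and sorted before RNA was taken. The 3 peak GC libraries served for the level in between. The naive, in vivo activated, and 4 h, 12 h and 24 h in vitro activated groups, with 3 libraries each, gave the level of a gene in B cells outside the GC. Because nothing says that the libraries came from separate animals, p-values here measure only the spread between libraries. Each level below is a deposited log2 value on a CPM-like scale, and a level of 0 is 1 CPM. CPM is a count scaled to a common library total. The deposited values had further adjustments, described at the end.

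The GC is the site in a lymphoid follicle where activated B cells divide, mutate their antibody genes and are selected for antigen binding. Division and mutation take place mainly in its dark zone. Capture of antigen and help from T cells take place mainly in its light zone. Early GCs give rise mostly to memory B cells and late ones increasingly to plasma cells, and GC B cells of the mouse are known for low Cd38 and high Fas.

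The libraries of both groups held the RNA of GC B cells. S1pr2, a receptor that holds B cells in the GC, had levels of 8.81, 8.58 and 8.50 in the early and 8.62, 8.58 and 8.48 in the late libraries. The groups overlapped, and the difference was -0.07 (SE 0.11, adjusted p = 0.655). Bcl6, Gcsam, Cd79a, Ms4a1, Pax5 and the division marker Mki67 were not called either, with differences from -0.17 to 0.43 (adjusted p from 0.18 to 0.821). Fas rose by 0.44 (SE 0.12, adjusted p = 0.0104), a call lost without late library 3 or early library 1.

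Of 11885 genes tested, 3648 (30.7%) passed an adjusted p under 0.05 and are called changed below. Late GC cells had 1375 genes higher (11.6%) and 2273 lower (19.1%), with a median over all genes of -0.06. At least 2-fold differences were called for 445 genes higher (3.74%) and 375 lower (3.16%). All 3 late libraries lay above all 3 early ones for 1791 genes (15.1%) and below for 3051 (25.7%). The spread was pooled over all 24 libraries. Fitted on the 9 GC libraries alone, 1409 genes were called (689 higher, 720 lower), and on the 6 libraries alone 2428 (1154 higher, 1274 lower). Without late library 1 and early library 2 together, the total was 2362.

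RNA of other cell types differed between the libraries and was measured first. The summed level of 22 macrophage and monocyte genes was 357, 386 and 241 CPM in the early libraries and 2280, 774 and 556 CPM in the late ones. That of 15 neutrophil genes was 168, 76.4 and 38.9 CPM in the early and 1390, 308 and 114 CPM in the late libraries. Late library 1 was the highest for both, and the lowest late library lay under the highest early one for neutrophil genes. The 14 erythroid genes summed to 421, 969 and 741 CPM in the early and 1730, 940 and 1220 CPM in the late libraries, again with overlap. Peak GC libraries had 149 to 309 CPM of macrophage, 30.5 to 128 CPM of neutrophil and 231 to 267 CPM of erythroid RNA. In bulk samples, fewer cells of a type and less RNA per cell cannot be told apart.

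**Figure D1:**
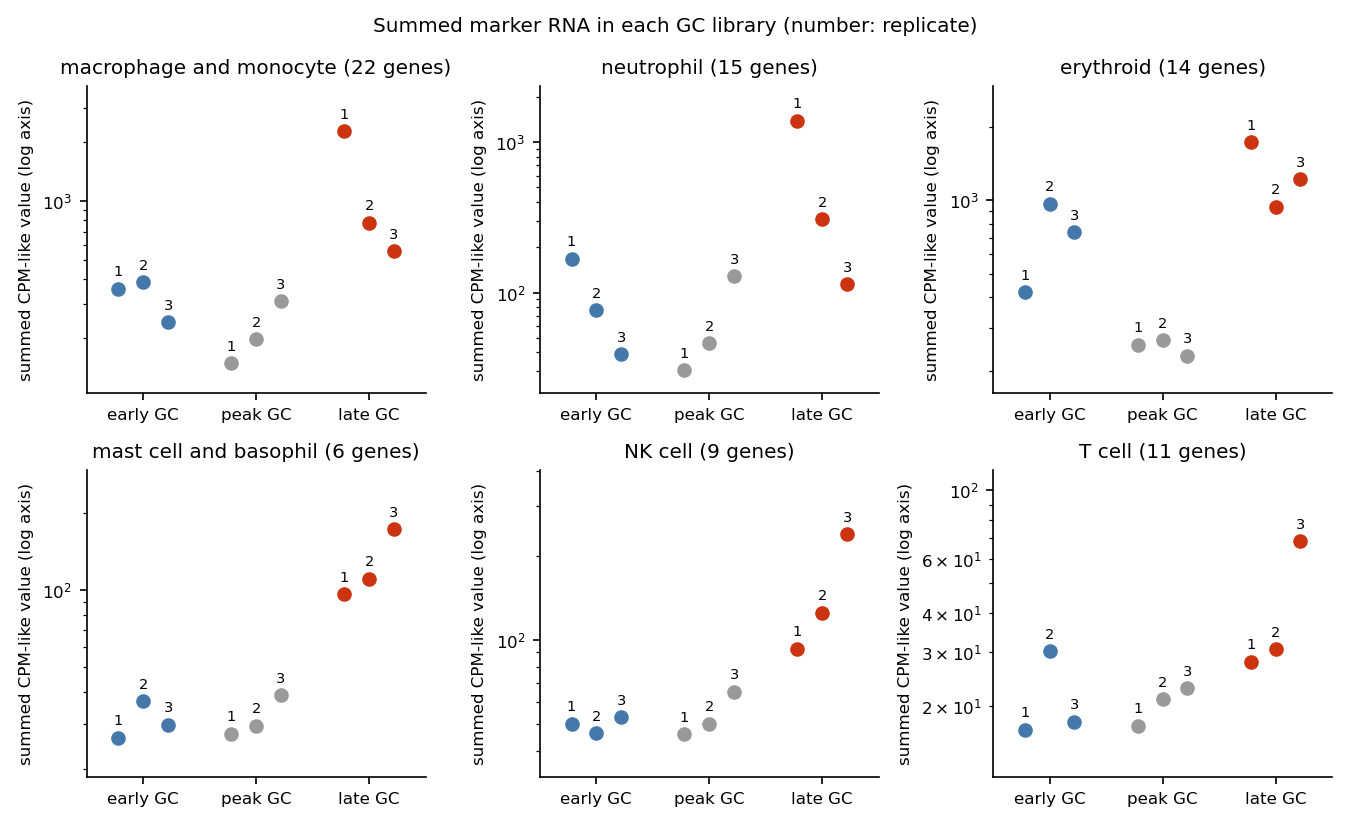
Summed CPM-like value (log axis) of 6 marker lists in each of the 9 GC libraries; each point is 1 library, numbered by replicate. Macrophage and neutrophil RNA peaked in late library 1 at 2280 and 1390 CPM, while mast cell and basophil, NK cell and T cell RNA were highest in late library 3, at 173, 238 and 68.5 CPM.

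Within the macrophage and monocyte list, 5 genes were called higher, among them genes of monocytes. Lyz2, the lysozyme of monocytes, macrophages and neutrophils, had levels of 7.92, 6.84 and 6.98 in the early and 10.82, 9.21 and 8.60 in the late libraries. All late libraries were above all early ones, and the difference was 2.30 (SE 0.54, adjusted p = 0.00471). Ccr2, the chemokine receptor of inflammatory monocytes, rose by 2.03 (SE 0.43, adjusted p = 0.00164) and Ly6c2, their surface antigen, by 2.09 (SE 0.49, adjusted p = 0.00399). All 3 calls were lost on the 9 GC libraries alone, where 0 genes of the list were called higher. They were also lost without late library 1 and early library 2 together, when the differences were 1.26 for Lyz2, 1.12 for Ccr2 and 1.19 for Ly6c2.

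C1qa, C1qb and C1qc, complement subunits made by resident macrophages, had levels of 3.90, 3.69 and 3.77 in early library 2. They were at 1.50 or lower in the other 5 libraries of the comparison, with differences from -1.07 to -0.81 that were not called. Cd5l, a protein of resident macrophages, fell by 1.62 (SE 0.57, adjusted p = 0.0352), but without early library 2 by only 0.65 (adjusted p = 0.343). Of the 19 tested macrophage and monocyte genes 5 were called higher (26.3%, against 11.6% of all genes) and 1 lower (5.3%, against 19.1%), with a median of -0.38. The number called higher was 3 without late library 1.

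All 12 tested neutrophil genes had positive differences, with a median of 2.22, and 7 were called (58.3%, against 11.6% of all genes called higher). S100a9, a calcium-binding protein of neutrophils and monocytes, had levels of 4.04, 3.04 and 2.79 in the early and 7.14, 5.71 and 4.20 in the late libraries. It rose by 2.39 (SE 0.61, adjusted p = 0.00748), and by 1.56 without late library 1 (adjusted p = 0.0353). Mpo, the myeloperoxidase of neutrophil precursors, had 9.40, 6.55 and 5.15 in the late and 6.28, 4.91 and 2.73 in the early libraries. The groups overlapped and it was not called (2.39, SE 1.05, adjusted p = 0.0968). Only 2 neutrophil genes were called without late library 1.

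Erythroid genes differed less. All 12 tested had positive differences, with a median of 0.70, and 3 were called (25.0%, against 11.6% of all genes called higher). Beta-s, the beta globin Hbb-bs, had levels of 7.38, 8.52 and 8.35 in the early and 9.79, 8.65 and 9.12 in the late libraries. It rose by 1.10 (SE 0.36, adjusted p = 0.0269), and by 0.70 without early library 1, which had the least (adjusted p = 0.153). The spectrin Sptb and the heme synthesis enzyme Alas2 were the others called. The number called was 0 without early library 1, without late library 3, on the 6 libraries and on the 9 GC libraries, and 1 without late library 1. The alpha globins Hba-a1 and Hba-a2 stayed under the filter, although they are as abundant as beta globin in red cells, and near-identical copies can lose reads in counting.

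Mast cell and basophil RNA was a further signal. Its 6 genes summed to 26.6, 36.9 and 29.9 CPM in the early and 96.6, 111 and 173 CPM in the late libraries, without overlap. Among the 6 genes, 5 were called higher (83.3%, against 11.6% of all genes). With 1 library left out, 3 or 4 were called, and 3 without late library 2 or 3 or early library 1. Kit, the stem cell factor receptor, had levels of 2.47, 3.10 and 2.75 in the early and 4.24, 4.13 and 4.78 in the late libraries. It rose by 1.61 (SE 0.19, adjusted p = 2.52e-06). The NK cell list (46.3 to 52.7 against 92.8 to 238 CPM) and the T cell list (16.8 to 30.1 against 27.9 to 68.5 CPM) were highest in late library 3. Gzmb, the cytotoxic protease granzyme B, rose by 1.93 (SE 0.32, adjusted p = 1.15e-04).

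The genes that rose most fell into groups by their level in the peak GC. Under the conditions of a call, at least 2-fold, at least 10 CPM in the late group and no overlap, 173 genes were gained in late GC. Of these, 42 rose in steps, with all early libraries under all peak ones and all peak ones under all late ones. For 81 genes the mean in peak GC was no higher than in early GC, so that they stood out in the late libraries alone. The other 50 fitted neither description. These groups were formed after the values were seen, and the peak values that define them are given as a description.

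The late libraries differed among themselves in another way in each group. The 42 stepwise genes had a median range over the 3 late libraries of 0.27 log2, and 2 of them had a range of 2-fold or more. In the 81 late-only genes the median range was 1.23, and 55 had 2-fold or more. Late library 1, with the most macrophage, neutrophil and erythroid RNA, was the highest for 71 of the 81 (87.7%), for 9 of the 42 (21.4%) and for 3754 of all 11885 genes (31.6%). It was also the highest for 535 of the 1375 genes called higher (38.9%) and for 97 of all 173 gained genes (56.1%). The marker lists held 11 of the 81, namely Lyz2, Ly6c2, Csf1r, S100a8, S100a9, Chi3l3, Csf3r, Kit, Beta-s, Ltf and Ccr2, and 0 of the 42. The stepwise rule asks for no overlap with the peak libraries and so favors genes with a small range. The late-only rule asks for a peak mean no higher than the early one and so favors genes that were lower at the peak. Median sums of the macrophage, neutrophil and erythroid lists were 197, 45.9 and 256 CPM in peak libraries, against 357, 76.4 and 741 CPM in early ones. Without late library 1, 42 of the stepwise and 66 of the late-only genes were called, and without late library 1 and early library 2 together 41 and 56.

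**Figure D2:**
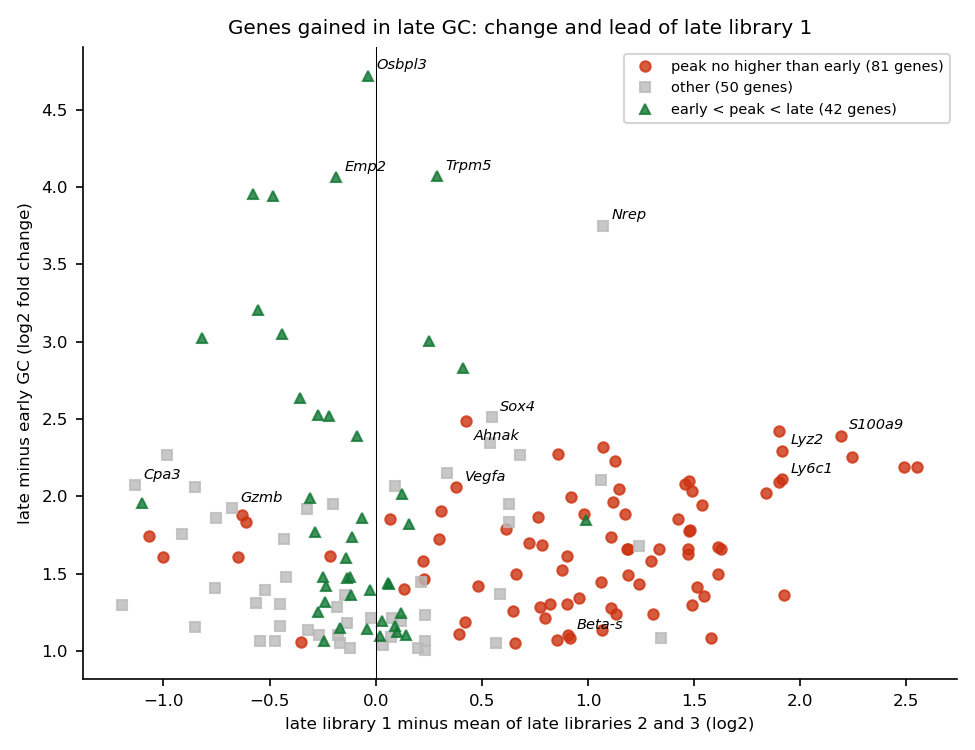
Each point is 1 of the 173 gained genes; the y axis gives its log2 fold change, late minus early GC, and the x axis the level in late library 1 minus the mean of late libraries 2 and 3 (log2). The stepwise genes (triangles) gather around 0 and hold the largest changes, and most late-only genes (circles), among them Lyz2 and S100a9, lie to the right.

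The stepwise genes included the largest increases of the comparison. Osbpl3 (chr6:50293330-50456201, mm10), which encodes an oxysterol-binding lipid transfer protein, had levels of 0.38, 0.40 and 0.65 in the early, 3.83, 3.58 and 3.81 in the peak and 5.17, 5.30 and 5.11 in the late libraries. Neither pair of neighboring stages overlapped. The late level was 26.4 times the early one, a difference of 4.72 (SE 0.26, adjusted p = 8.47e-11).

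Trpm5 (chr7:143069153-143094642), a calcium-activated cation channel, had -0.02, 0.10 and -0.17 in the early and 4.24, 4.04 and 3.85 in the late libraries. Its peak levels were 2.03, 2.49 and 1.52, all between the other groups. The difference was 4.07 (SE 0.30, adjusted p = 3.39e-09). Emp2 (chr16:10281749-10313968), an epithelial membrane protein, had 1.12, 1.47 and 1.13 in the early and 5.19, 5.39 and 5.35 in the late libraries, 4.07 higher (SE 0.56, adjusted p = 1.67e-05). It was under 1 CPM in naive, cultured and in vivo activated B cells.

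Genes of cell surface and signaling proteins were among the next. Celsr1 (chr15:85898929-86033777), a cadherin of planar cell polarity, had levels of 1.96, 2.57 and 2.42 in the early and 4.79, 5.53 and 5.69 in the late libraries and rose by 3.02 (SE 0.26, adjusted p = 5.01e-08). Bmpr1a (chr14:34410734-34503341), a receptor for bone morphogenetic proteins, had 1.81, 2.15 and 1.81 in the early and 4.68, 5.41 and 4.82 in the late libraries. It rose by 3.05 (SE 0.74, adjusted p = 0.00464) without overlap.

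Kcnh1, a potassium channel, rose by 3.95 (SE 0.75, adjusted p = 4.77e-04), and Gnaz, a G protein alpha subunit, by 2.83 (SE 0.57, adjusted p = 8.91e-04). Rgs9 and Rgs13, which shorten G protein signals, rose by 2.64 (adjusted p = 1.94e-09) and 1.39 (adjusted p = 1.06e-06). Tox2 (chr2:163203125-163324170), a nuclear HMG-box protein, had 1.79, 1.80 and 2.44 in the early and 4.85, 5.27 and 5.54 in the late libraries, 3.21 higher (SE 0.83, adjusted p = 0.0073). Etl4 and Lphn2, the latter an adhesion receptor, rose in the same stepwise way by 3.94 and 2.53.

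Other genes rose late without a separate step at the peak. Ahnak (chr19:8989284-9076914), a giant scaffold protein, had levels of 4.07, 4.03 and 3.76 in the early, 3.63, 3.56 and 4.04 in the peak and 6.73, 6.05 and 6.55 in the late libraries. The late libraries were well above the other 6, and the difference to early GC was 2.49 (SE 0.15, adjusted p = 5.06e-10). Its level in naive B cells was 7.04. S100a4 and S100a6, small calcium-binding proteins, rose by 2.34 (SE 0.31, adjusted p = 1.75e-05) and 2.27 (SE 0.30, adjusted p = 1.18e-05). Both were highest in late library 1 and lowest in late library 2, as Ahnak was.

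Sox4, a transcription factor of lymphoid progenitors, had 1.57, 0.61 and 0.47 in the early and 3.76, 3.14 and 3.28 in the late libraries. It rose by 2.51 (SE 0.32, adjusted p = 8.84e-06). Nrep rose by 3.75 (SE 0.64, adjusted p = 1.77e-04), with late levels of 4.62, 3.20 and 3.90, and its peak libraries overlapped with the early ones. F2r, the thrombin receptor, was highest in late library 3 (3.20, 3.90 and 4.46) and rose by 2.27 (SE 0.52, adjusted p = 0.00315). Ranbp17, a nuclear transport receptor, rose by 2.15 (SE 0.27, adjusted p = 5.42e-06), with peak libraries above the early ones and partly within the late range.

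Ly6c1, a lymphocyte and monocyte surface antigen, had 2.46, 1.41 and 1.13 in the early and 5.06, 3.34 and 2.95 in the late libraries, and rose by 2.11 (SE 0.50, adjusted p = 0.00358). The rise was 1.38 without late library 1, and without early library 2 as well it was 1.17 and not called (adjusted p = 0.0988). The call was also lost on the 9 GC libraries alone (adjusted p = 0.112). The macrophage and neutrophil sums had the same order of late libraries, and their part in this result was not tested.

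**Figure D3:**
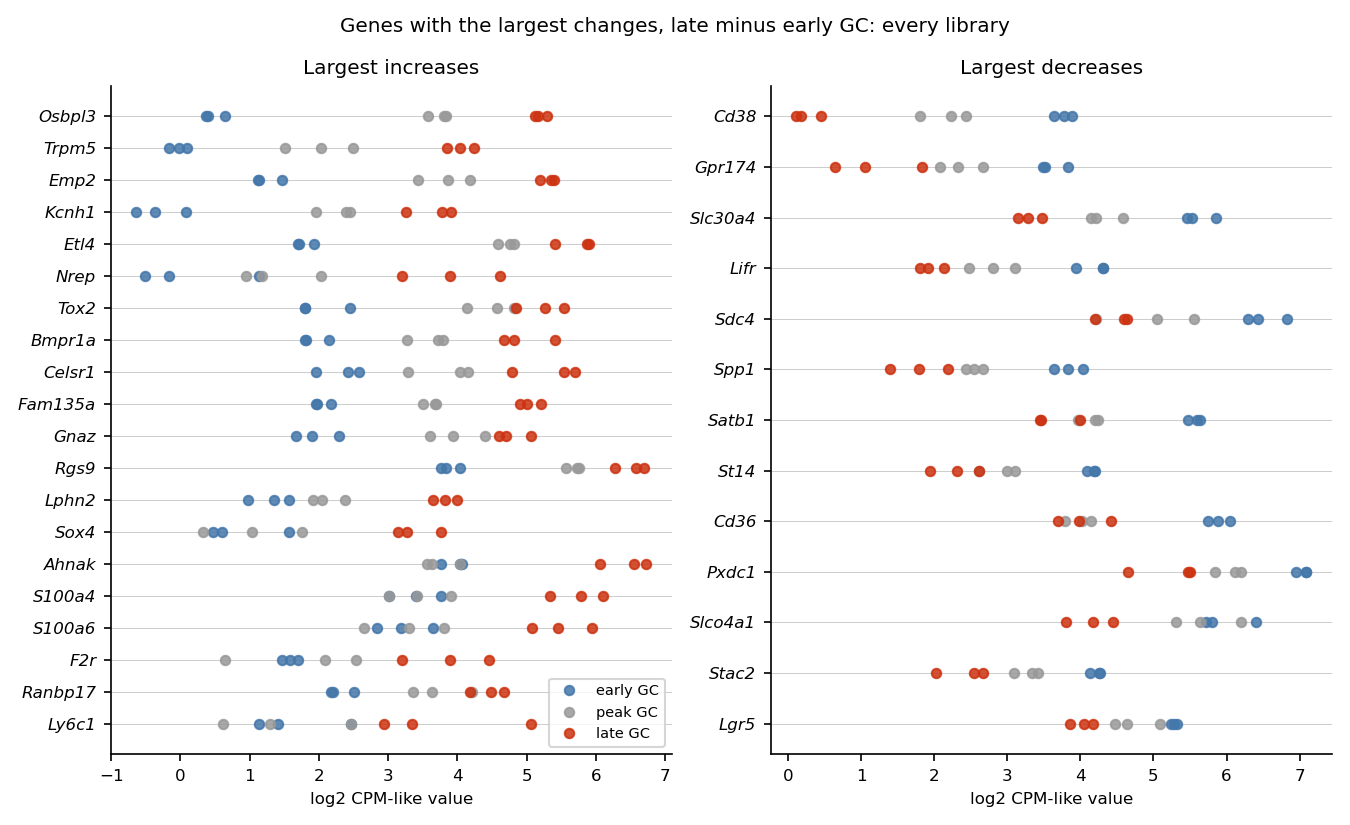
Log2 level of the genes with the largest changes in every early, peak and late GC library; each point is 1 library. Osbpl3, Emp2 and Cd38 had peak libraries between the early and late ones, while Ahnak, S100a4 and S100a6 had peak libraries beside the early ones.

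A low level in B cells outside the GC did not set B-cell genes apart from those of other cells. Of the 445 genes called at least 2-fold higher, 139 (31.2%) were under 1 CPM in each of the in vivo activated, 12 h and 24 h groups. The share was 14.1% of the 375 called at least 2-fold lower (53 genes) and 6.09% of all tested genes. The 139 hold stepwise genes such as Emp2, Kcnh1, Tox2 and Bmpr1a beside Ccr2 of the monocyte list, Csf3r of the neutrophil list, and Fn1, which encodes fibronectin. Fn1 had levels of 5.81, 4.66 and 5.15 in the early and 8.89, 7.15 and 6.84 in the late libraries, the order of the macrophage sum within the late group. With all genes low in those B cells and all marker genes left out, 3433 of 11110 genes were called, 1212 higher and 2221 lower.

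The largest decrease was in Cd38 (chr5:43868553-43912375), a surface enzyme that marks naive and memory B cells of the mouse. Its levels were 3.65, 3.88 and 3.78 in the early, 2.44, 2.23 and 1.81 in the peak and 0.18, 0.12 and 0.46 in the late libraries. No stages overlapped, and the early level was 11.4 times the late one (difference -3.52, SE 0.12, adjusted p = 2.47e-14). In naive B cells its level was 6.97. Under the conditions used for gained genes, 55 genes were lost, 27 of them in steps from early through peak to late. None of the 55 was on a marker list, and their median range over the late libraries was 0.47, with 2 at 2-fold or more.

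Gpr174 (chrX:107255878-107296769), a lysophosphatidylserine receptor of lymphocytes, had levels of 3.49, 3.52 and 3.84 in the early and 0.65, 1.84 and 1.06 in the late libraries and fell by 2.44 (SE 0.23, adjusted p = 6.16e-07). Slc30a4 (chr2:122681233-122702663), a zinc exporter, fell by 2.31 (SE 0.13, adjusted p = 1.9e-10). Lifr, the receptor of leukemia inhibitory factor, fell by 2.24 (SE 0.23, adjusted p = 5.84e-07). Satb1, an organizer of chromatin in lymphocytes, had 5.60, 5.47 and 5.63 in the early and 3.47, 3.45 and 4.00 in the late libraries. It fell by 1.93 (SE 0.13, adjusted p = 2.57e-09).

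The scavenger and fatty acid receptor Cd36 was among 7 of the 55 genes whose level was lowest at the peak. Its levels were 5.75, 6.04 and 5.88 in the early, 4.14, 4.02 and 3.79 in the peak and 4.42, 3.69 and 3.98 in the late libraries. Late and peak libraries overlapped, and both groups lay under the early one (late minus early -1.86, SE 0.15, adjusted p = 2.06e-08). Sdc4, Spp1 (osteopontin), St14, Pxdc1, Slco4a1 and Stac2 fell by 2.04, 2.04, 1.86, 1.84, 1.83 and 1.81. Lgr5, a receptor that strengthens Wnt signals and is low in B cells outside the GC, had 5.28, 5.33 and 5.24 in the early and 4.17, 4.05 and 3.86 in the late libraries. It fell by 1.26 (SE 0.25, adjusted p = 7.89e-04).

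Among 28 lists of pathway and cell state genes, cholesterol synthesis changed in most of its members. Of its 22 genes, 20 were called lower (90.9%, against 19.1% of all genes) and 0 higher, and all 22 differences were negative. The median was -0.48, against -0.06 over all genes. For 21 genes all late libraries lay under all early ones (25.7% of all genes did so). Between 16 and 21 were called lower under every alternative fit that was run, 16 of them on the 9 GC libraries alone.

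The pathway builds cholesterol from acetyl-CoA and is switched on, in low sterol, by the transcription factor SREBP2 together with the CCAAT-binding factor NF-Y. Hmgcs1, which makes HMG-CoA, had levels of 7.20, 7.40 and 7.34 in the early and 6.84, 6.90 and 6.79 in the late libraries. The groups did not overlap, and the fall was 0.47 (SE 0.08, adjusted p = 1.44e-04). Mvk, mevalonate kinase, had 4.67, 4.35 and 4.57 in the early and 3.57, 3.83 and 3.88 in the late libraries, and fell by 0.77 (SE 0.11, adjusted p = 1.76e-05). Acat2, an acetyl-CoA acetyltransferase that acts before Hmgcs1, fell by 0.70 (SE 0.09, adjusted p = 7.93e-06).

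Later steps had the same direction. Mvd and Fdps, which lead to farnesyl diphosphate, fell by 0.65 (SE 0.08, adjusted p = 6.41e-06) and 0.55 (SE 0.06, adjusted p = 2.35e-06). Lss, lanosterol synthase, had levels of 5.12, 5.06 and 4.78 in the early and 4.14, 4.28 and 4.17 in the late libraries, the largest fall of the list at 0.79 (SE 0.09, adjusted p = 2.05e-06). Peak libraries had 4.83, 4.66 and 4.73, partly within the early range. Cyp51 and Ebp were not called, at -0.19 and -0.22 (adjusted p = 0.0757 and 0.0548).

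**Figure D4:**
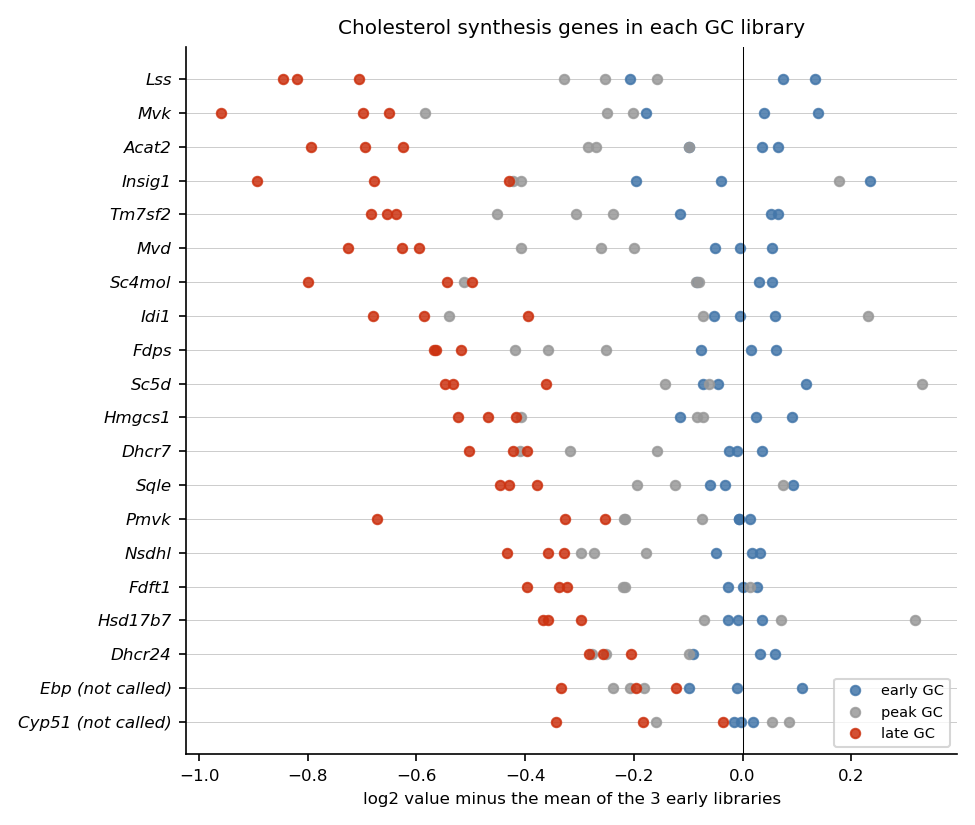
Level of 20 cholesterol synthesis genes in the 9 GC libraries minus the mean of the 3 early libraries (log2); each point is 1 library. Late libraries lie left of all early ones for all 20 genes shown, and Lss had the largest fall.

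Promoter letters of this list are shown because its members moved together. Of the 22 genes, 15 matched a RefSeq promoter (GRCm38.p6), read over the 250 bases before the start. On either strand, 13 of the 15 windows (86.7%) held CCAAT, the core letters of NF-Y sites, against 37.0% of 8834 tested genes. CACNCCA, a sterol element motif, was in 3 of the 15, against 15.5% of the tested genes, and both motifs in 2 (13.3%, against 5.54%). The motifs can share their CCA letters where they meet. They were chosen with the list's values known, and a match describes letters only. The windows of Mvk (chr5:114444019-114444268, plus strand, 5 matches of CCAAT) and Hmgcs1 (chr13:119690101-119690350, plus strand, 3 matches of CCAAT and 1 of CACNCCA) are printed 5′ to 3′, with capitals marking the motifs.
Mvk: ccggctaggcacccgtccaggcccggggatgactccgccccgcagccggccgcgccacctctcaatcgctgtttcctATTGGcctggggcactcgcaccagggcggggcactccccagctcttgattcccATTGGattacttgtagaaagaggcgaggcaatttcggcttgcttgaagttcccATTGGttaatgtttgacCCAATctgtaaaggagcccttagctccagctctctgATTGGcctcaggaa
Hmgcs1: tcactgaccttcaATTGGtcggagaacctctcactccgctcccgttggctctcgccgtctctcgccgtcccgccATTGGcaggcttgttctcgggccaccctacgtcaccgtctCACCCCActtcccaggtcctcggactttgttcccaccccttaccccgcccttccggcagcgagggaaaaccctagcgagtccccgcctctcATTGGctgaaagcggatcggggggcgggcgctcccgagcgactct
Both genes were called lower without overlap of the groups, as given above.

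Genes of B-cell receptor signaling were lower as well, by smaller amounts. Of 26 members 14 were called lower (53.8%, against 19.1% of all genes) and 1 higher (3.8%, against 11.6%). The median was -0.23, against -0.06 over all genes. For 17 members all late libraries lay under all early ones (25.7% of all genes did so). Syk, the kinase that binds the activated receptor, had levels of 9.62, 9.65 and 9.66 in the early and 9.26, 9.11 and 9.06 in the late libraries. It fell by 0.50 (SE 0.09, adjusted p = 4.77e-04). Btk and Vav1, which act after it, fell by 0.41 and 0.34. Lyn, Plcg2, Prkcb and Nfatc1 were not called, with differences from -0.15 to 0.02. Bcl10 was the 1 called higher (0.15, adjusted p = 0.0465), a call lost in most fits that left out a library. The count was 10 without late library 1 and early library 2 together.

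The coreceptor Cd72, an inhibitor of receptor signals, fell by 0.87 (SE 0.09, adjusted p = 3.43e-07) and the inhibitory Fc receptor Fcgr2b by 0.49 (SE 0.06, adjusted p = 2.13e-06). Of 14 inhibitory receptors 5 were called lower (35.7%, against 19.1% of all genes) and 2 higher (14.3%, against 11.6%). Pdcd1 and Lilrb4 were the latter, Pdcd1 at levels under 1 CPM in all 9 GC libraries. Lilrb4 had 3.77, 2.45 and 2.65 in the late libraries, and its call was lost without late library 1 and early library 2 together.

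Of 16 B-cell identity genes 9 were called lower (56.2%, against 19.1% of all genes) and 1 higher (6.2%, against 11.6%). The median was -0.19, against -0.06 over all genes. Bank1, a scaffold of B-cell receptor signals, had levels of 8.17, 8.17 and 8.37 in the early, 7.64, 7.58 and 7.24 in the peak and 6.80, 6.86 and 6.96 in the late libraries. It fell in steps, by 1.36 in all (SE 0.08, adjusted p = 2.38e-10). Without late library 1 and early library 2 together, 5 members were called lower. The uncalled Cd79a and Ms4a1 differed by -0.07 (SE 0.07) and -0.12 (SE 0.11), smaller in size than the falls of Bank1 and Cd72.

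**Figure D5:**
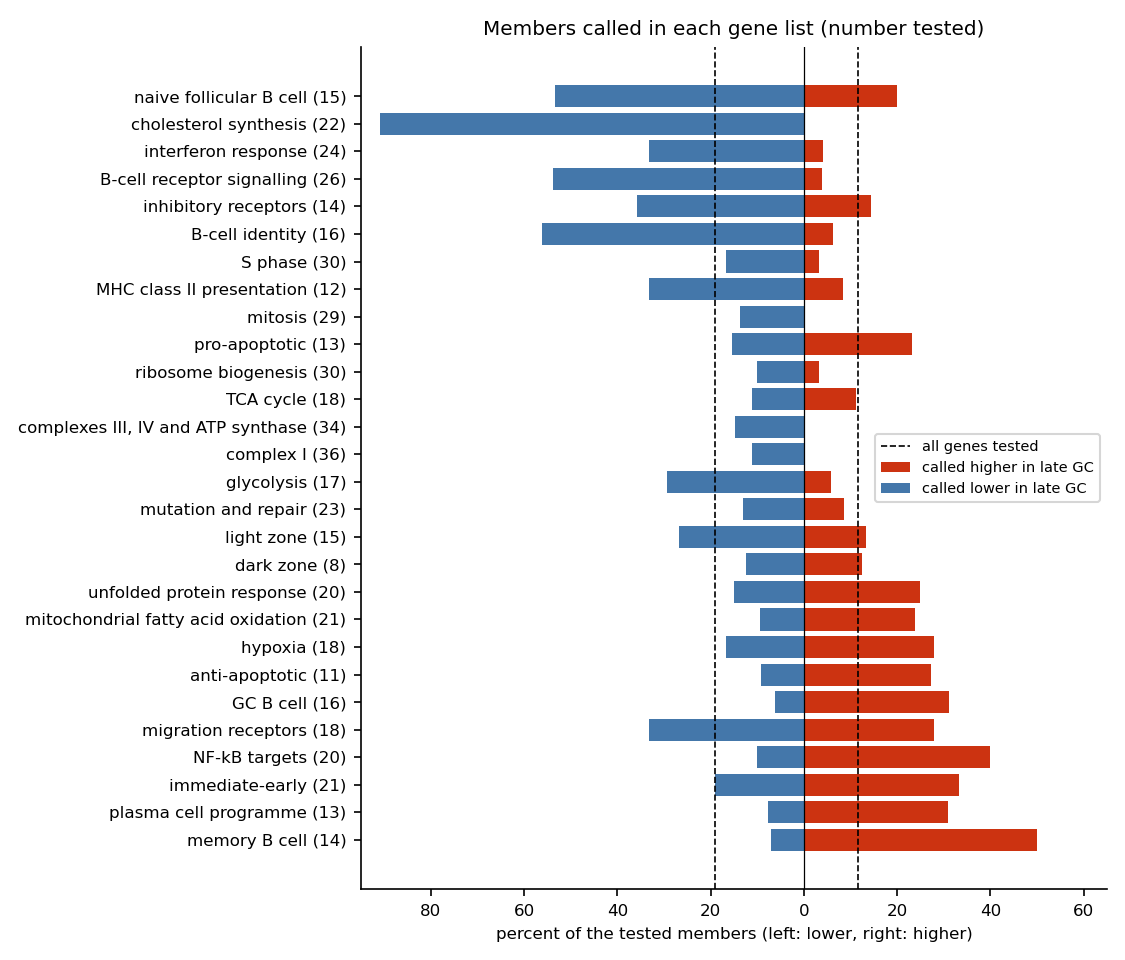
Share of the tested members of each of 28 gene lists called higher (right) or lower (left) in late GC; dashed lines give the shares over all genes tested, 11.6% and 19.1%. Cholesterol synthesis had 90.9% lower, and the memory B-cell list the highest share called higher, 50.0%.

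GC genes and naive follicular genes moved in different directions on balance. Of 16 GC B-cell genes 5 were called higher (31.2%, against 11.6%) and 1 lower, with a median of 0.11. Basp1, a membrane protein, had 7.59, 7.54 and 7.54 in the early and 8.82, 9.01 and 8.93 in the late libraries, 1.36 higher (SE 0.12, adjusted p = 6.45e-08). Its peak levels of 8.78 to 8.89 were already near the late ones. Rgs13, Mef2b, Plxnb2 and Fas were the others called higher. Efnb1, an ephrin, fell by 0.31, a call lost without late library 1 or 2 or early library 1 or 2.

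Of 15 naive follicular genes 8 were called lower (53.3%) and 3 higher, with a median of -0.54. Ccr6, a chemokine receptor, had levels of 3.06, 2.60 and 2.71 in the early and 0.17, 0.74 and 0.73 in the late libraries and fell by 2.25 (SE 0.14, adjusted p = 1.14e-09). Cd38, Fcer2a, Cd55, Il4ra, Gpr183, Cr2 and Satb1 were the others called lower. Itgb7, an integrin chain of gut homing, went the other way and rose by 1.26 (SE 0.19, adjusted p = 7.64e-05), with 6.31, 5.36 and 5.97 in the late libraries. It was highest in late library 1, and the part of other cells in its rise was not tested.

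Of 14 memory B-cell genes 7 were called higher (50.0%, against 11.6% of all genes) and 1 lower (7.1%, against 19.1%). The median was 0.61. Cd80, a ligand of T-cell costimulation, had levels of 0.23, -0.18 and -0.14 in the early and 2.11, 1.44 and 1.77 in the late libraries and rose by 1.80 (SE 0.22, adjusted p = 4.06e-06). Cd44, the hyaluronan receptor, rose by 0.53 (SE 0.08, adjusted p = 5.4e-05). Nt5e, the ecto-enzyme CD73, had 5.38, 5.32 and 5.67 in the early and 6.66, 6.76 and 6.60 in the late libraries (1.21 higher, SE 0.23, adjusted p = 4.77e-04). Zeb2, which myeloid cells also express, had 5.77 in late library 1 and 4.73 and 4.68 in the others. Bmpr1a, Ski and Il9r were the others called higher. Cxcr3, lower by 1.03 (adjusted p = 0.00804), lost its call without late library 1 or early library 2.

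Light zone and dark zone lists showed no common direction. Of 15 light zone genes 2 were called higher (13.3%, against 11.6% of all genes) and 4 lower (26.7%, against 19.1%), with a median of -0.03. The dark zone list had 1 of 8 genes called in each direction (12.5%), with a median of -0.02. Myc, the growth regulator of selected cells, had 7.13, 7.07 and 7.25 in the early and 6.76, 6.63 and 6.71 in the late libraries and fell by 0.45 (SE 0.10, adjusted p = 0.00216). Foxp1 fell by 0.36 (SE 0.07, adjusted p = 9.91e-04). The rise of Foxo1, by 0.16, lost its call without any 1 of late libraries 1 to 3 and early libraries 2 and 3.

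Genes of NF-kB and of the immediate-early response changed in part. Of 20 NF-kB target genes 8 were called higher (40.0%, against 11.6% of all genes) and 2 lower, with a median of 0.14. Over all genes 19.1% were called lower, and the median was -0.06. The count higher was 5 on the 9 GC libraries, where 1 was called lower. With 1 library left out, 5 to 8 were called higher and 2 lower. Nfkbia, the inhibitor that NF-kB induces, had levels of 7.56, 7.46 and 7.57 in the early and 8.20, 8.18 and 8.22 in the late libraries, 0.67 higher (SE 0.10, adjusted p = 4.7e-05) and alike in all 3. The subunit gene Nfkb1 fell by 0.44 (SE 0.05, adjusted p = 2.99e-06). Ebi3, a cytokine subunit, rose by 0.80 (SE 0.14, adjusted p = 2.79e-04).

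Of 21 immediate-early genes 7 were called higher (33.3%, against 11.6% of all genes) and 4 lower (19.0%, against 19.1%), with a median of 0.19. The count higher was 4 without early library 2, and the count lower was 2 without late library 2 or early library 1 or 3 and 1 on the 9 GC libraries. Fosl2, an AP-1 subunit, had 4.19, 4.33 and 4.15 in the early and 6.43, 5.46 and 5.82 in the late libraries, 1.68 higher (SE 0.22, adjusted p = 1.71e-05) and highest in late library 1. Klf6 rose by 1.29 (SE 0.17, adjusted p = 3.27e-05), highest in late library 2. Egr3, induced by receptor signals, fell by 1.01 (SE 0.28, adjusted p = 0.0114), a call lost without late library 2 or 3 or early library 1. The phosphatase Dusp2 fell by 0.57 (SE 0.08, adjusted p = 2.87e-05).

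Interferon response genes were called lower for 8 of 24 members (33.3%, against 19.1% of all genes) and higher for 1 (4.2%, against 11.6%), with a median of -0.30. Ifit2 had levels of 2.79, 3.03 and 3.15 in the early and 1.82, 1.84 and 1.69 in the late libraries, 1.21 lower (SE 0.12, adjusted p = 2.2e-07). Ddx58, the RNA sensor RIG-I, fell by 1.20 (SE 0.13, adjusted p = 7.38e-07). Of 12 genes of MHC class II presentation 4 were called lower (33.3%) and 1 higher (8.3%), with a median of -0.13. The transactivator Ciita fell by 0.37 (SE 0.10, adjusted p = 0.00745) and the thiol reductase Ifi30 by 0.29 (SE 0.05, adjusted p = 2.24e-04), while the protease Ctss rose by 0.27 (SE 0.05, adjusted p = 1.83e-04).

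Few genes of cell division were called, although most had small negative differences. The differences were negative for 26 of 30 S-phase and 28 of 29 mitosis genes. Of the 30 S-phase genes 5 were called lower (16.7%) and 1 higher (median -0.15), and of the 29 mitosis genes 4 were lower (13.8%) and 0 higher (median -0.12, against -0.06 over all genes). Both shares were near or under the 19.1% of all genes. Kif23, a kinesin of cell separation, had 7.87, 7.88 and 7.56 in the early and 7.58, 7.48 and 7.46 in the late libraries, with overlap (-0.26, SE 0.09, adjusted p = 0.0246). Leaving out 1 library in turn moved the counts called lower between 1 and 10 in S phase and between 0 and 8 in mitosis. All 4 mitosis calls were lost without late library 2 or 3, or early library 1 or 2.

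Lists of energy metabolism had medians near that of all genes. Of 36 complex I genes 4 and of 34 genes of complexes III, IV and ATP synthase 5 were called lower, and 0 in either higher, with medians of -0.05. Their shares of 11.1% and 14.7% were under the 19.1% of all genes. With 1 library left out the counts ran from 2 to 8 and from 0 to 7, lowest without early library 2 and highest without early library 3, and both were 0 on the 9 GC libraries. Suclg2 and Idh2 of the TCA cycle rose by 0.41 (SE 0.05, adjusted p = 3.04e-06) and 0.54 (SE 0.09, adjusted p = 1.04e-04), while Fh1, fumarase, fell by 0.34 (SE 0.06, adjusted p = 1.99e-04). Of 21 fatty acid oxidation genes 5 were called higher (23.8%, against 11.6% of all genes) and 2 lower (9.5%, against 19.1%). These numbers were 2 and 0 on the 9 GC libraries, and 4 to 7 and 0 to 2 with 1 library left out. Hadh had levels of 5.05, 4.93 and 4.91 in the early and 5.30, 5.35 and 5.26 in the late libraries, 0.34 higher (SE 0.07, adjusted p = 0.00112), and Acadl rose by 0.30 (SE 0.05, adjusted p = 3.32e-04). In glycolysis 5 of 17 were called lower (29.4%, against 19.1%), with a median of -0.04. That count was 3 without late library 1 or 3, 1 without early library 2 and 0 on the 9 GC libraries. The hexokinase Hk2 rose by 0.70 (SE 0.11, adjusted p = 1.23e-04).

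Survival, stress and secretion genes changed in both directions. Pmaip1, the death activator Noxa, had 6.47, 5.93 and 6.26 in the early and 7.14, 7.34 and 6.98 in the late libraries, 0.93 higher (SE 0.18, adjusted p = 9.1e-04). The anti-apoptotic Bcl2l1 rose by 0.47 (SE 0.10, adjusted p = 0.0014). Of 13 pro-apoptotic genes 3 were called higher (23.1%, against 11.6% of all genes) and 2 lower (15.4%, against 19.1%). Among 11 anti-apoptotic genes the numbers were 3 (27.3%) and 1 (9.1%). Of 20 genes of the unfolded protein response 5 were called higher (25.0%) and 3 lower (15.0%). Herpud1, of protein degradation at the endoplasmic reticulum, rose by 0.87 (SE 0.12, adjusted p = 3.92e-05).

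Of 13 plasma cell genes 4 were called higher (30.8%, against 11.6% of all genes) and 1 lower (7.7%, against 19.1%). The count higher was 2 without late library 2, without early library 2 and on the 9 GC libraries, and 7 without early library 1. Igj, the J chain of secreted antibodies, had 9.76, 9.76 and 9.73 in the early and 10.15, 10.46 and 10.29 in the late libraries, 0.55 higher (SE 0.12, adjusted p = 0.00218). Of 18 hypoxia genes 5 were called higher (27.8%) and 3 lower (16.7%). Vegfa, a growth factor for vessels, had 1.50, 1.13 and 1.40 in the early and 3.65, 3.19 and 3.36 in the late libraries, 2.06 higher (SE 0.26, adjusted p = 6.7e-06), and its peak levels lay within 0.72 to 1.90. Of 18 migration receptors 5 were called higher (27.8%) and 6 lower (33.3%), and the integrin chain Itgb1 rose by 0.44 (SE 0.06, adjusted p = 2.63e-05). In 23 mutation and repair genes 2 were called higher and 3 lower, and in 30 ribosome biogenesis genes 1 and 3.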

How the data were processed

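The authors deposited log2 values on a CPM-like scale for 23420 genes in 24 libraries, not counts, so the sequencing depth is unknown. The tools named in the submitters' processing notes are STAR 2.6.0c, Subread 1.6.2 with featureCounts, limma, cutadapt 1.8.3 and FastQC 0.11.5, and the build is mm10. Their roles and the normalization steps are not given in the sources used here. In the deposited values, library totals were alike (990678 to 1008194) and differences between replicate numbers had been taken out (largest 0.0006). The libraries also had nearly the same distribution. The value at rank 1000 differed by at most 0.03, and medians of tested genes ran from 4.706 to 4.725. Median centring could therefore change little. Genes at 0 log2 or more in at least 3 libraries were tested (11885).

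Late minus early GC was fitted with limma 3.58.1 (R 4.3.3) on all 24 libraries, with a mean per group and the replicate number as terms (14 residual degrees of freedom), a variance trend and robust moderation. The test is two-sided, with Benjamini-Hochberg adjustment over all tested genes, and it was tested on simulated data. Every adjusted p in the text is from this limma fit, or from the alternative named. Marker sums add 2 to the power of the log2 value and were not tested.

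The comparison, lists and tests were chosen with earlier results of these data known. Named genes were the largest called changes of at least 2-fold, with 10 CPM in the higher group and no overlap, up to 12 and 8 in each direction for genes present in or low in B cells outside the GC, then up to 4 called members of each list, marker genes and a label check. Other named members were chosen after their values were seen. Left-out libraries, library subsets, filters, log2(CPM + 1), median centring and the replicate term were the alternatives. CPM there is 2 to the power of the deposited log2 value. Leaving out late library 1 and early library 2 together was added after seeing the data. Positions are GENCODE M21 on GRCm38 (mm10), found by symbol for 21737 genes and by synonym for 1256, with 427 unmatched. Some members counted in the lists are not reported here by name.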

Additional observations from a re-analysis of the deposited data

How the results depend on the processing

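None of the 154 named genes called changed direction under the alternatives run. Among uncalled label-check genes S1pr2 ran from -0.145 to 0.032, Bcl6 from -0.101 to 0.238 and Mki67 from -0.145 to 0.052 with 1 library left out. Leaving out 1 of the 6 libraries in turn gave 2808 to 3175 genes called, 1107 to 1224 higher and 1701 to 2003 lower. Each of these fits held 1 library fewer. The cause of the shifts given here and below was not tested. On the 9 GC libraries 1409 genes were called (689 higher, 720 lower), and on the 6 libraries 2428, with 1274 lower. Without late library 1 and early library 2 together, 2362 were called and 1358 of them lower. Higher genes low in B cells outside the GC numbered 144, and 217 on 6 libraries. They numbered 298 with no filter, 28 with a filter at 10 CPM and 283 with log2(CPM + 1). Macrophage genes called higher numbered 0 on 9 libraries, 3 on 6, 2 without both libraries and 3 to 6 with 1 left out. For neutrophil genes the numbers were 1 on 9 libraries, 2 at 10 CPM and 11 with log2(CPM + 1). They were 0 without both libraries and 2 to 12 with 1 left out. Erythroid genes called higher numbered 0 on 9 and on 6 libraries and 7 with log2(CPM + 1). They numbered 1 without both libraries and 0 to 3 with 1 left out. Of the late-only genes 42 were called on 9 libraries. Of 154 named genes called, 63 lost their call on 9 libraries, 33 on 6 and 48 without both libraries.

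Without the replicate block 4169 genes were called, 1544 higher and 2625 lower, and 0 named genes lost their call. Late and early libraries of the same number had deviations that correlated at 0.112, -0.301 and 0.0. Because differences between replicate numbers had been taken out of the deposited values, these correlations cannot show whether the numbers pair the samples.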
